A study of Mus musculus with 6 samples.

Results

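Integrin and cadherin genes were described in cultured mouse neural stem cells of 3 Ecrg4 genotypes. The set was every probe whose annotated symbol names an integrin alpha or beta chain or a numbered cadherin, leaving out the integrin-binding proteins named Itgb1bp and Itgb3bp. This gave 50 probes of 49 genes, out of 23466 probes on the array. Of these probes 24 stand for integrin chains (16 alpha and 8 beta) and 24 for cadherins (23 genes, with 2 probes for Cdh24). The other 2 match by name only: Itgb4bp is the older symbol of Eif6, a ribosome maturation factor, and Itgbl1 encodes a secreted protein that resembles a beta chain. Brains of newborn C57BL6 mice (postnatal day 0) were the source of the cells, which grew untreated in a DMEM/F12 medium that held heparin and the mitogens bFGF and EGF. The arrays were labelled Ecrg4 homo, Ecrg4 hetero or Ecrg4 wt, with 2 arrays for each label, called homozygous, heterozygous and wild type here. Ecrg4 encodes a small secreted protein. The sources used here say neither how the allele was made nor whether replicates stand for separate mice or cultures, so p-values cover the spread between arrays alone, and that spread may be technical.

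Integrins are receptors made of an alpha and a beta chain that hold cells to matrix proteins such as laminin and vitronectin and signal to the cytoskeleton. Cadherins hold cells to each other through calcium-dependent contacts and are tied to actin by catenins. In the developing brain, N-cadherin builds the junctions of neural progenitors, beta-1 integrins bind the laminin of the basement membrane, and type II cadherins mark regions and nuclei. The arrays share a median of 30 units and were read as scaled by the authors. An array had a value for between 21740 and 22561 probes. The level under which a probe cannot be told from background was taken as the 95th percentile of 663 olfactory receptor probes, between 50.5 and 57.6 units per array. Ecrg4 itself read 1.4 and 1.3 units in homozygous, 345.5 and 373.9 in heterozygous and 112.9 and 154.9 in wild-type arrays. The homozygous label thus matched the probe, while Ecrg4 read higher in heterozygous than in wild-type arrays, and every direction below refers to the arrays as labelled. Of 9 measured neural stem cell markers 8 exceeded the olfactory receptor level on all 6 arrays, and none of 7 neuron markers did on any. On all arrays 3 of 6 astrocyte and 2 of 6 oligodendrocyte lineage markers exceeded it as well. So did 1 of 8 mural, meningeal and fibroblast markers and 1 of 4 epithelium and choroid plexus markers. The material is bulk RNA, in which fewer cells of a type and less RNA per cell cannot be told apart.

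Of the 50 probes, 12 exceeded the olfactory receptor level on all 6 arrays, 3 on some arrays and 35 on no array. Per array, between 12 and 14 of the 45 to 49 members with a value exceeded it, beside 40.1% to 42.4% of all measured probes. Among the 16 alpha chains 2 exceeded it on all arrays, among the 8 beta chains 2, among the 5 type I cadherins 3, among the 14 type II cadherin probes 3 and among the 5 other cadherins 1. Itgb4bp was the remaining probe. Probes bind with different strength, so intensities are set against each other only between arrays of the same probe.

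The alpha chains above the level were both laminin-binding. Itga6, whose product is also used to sort neural stem cells, read 142.6 and 167.6 units in homozygous, 120.2 and 158.2 in heterozygous and 113.2 and 124.3 in wild-type arrays. Itga7, best known from muscle, read 237.6 and 288.4 in homozygous, 320.2 and 226.4 in heterozygous and 267.4 and 333.4 in wild-type arrays. The homozygous arrays of Itga6 lay above the wild-type arrays, and those of Itga7 overlapped them. Itgav, the shared partner of the vitronectin-binding beta chains, lay close to the level, with 63.1 and 56.3 units in homozygous, 51.0 and 53.0 in heterozygous and 42.7 and 65.1 in wild-type arrays, and exceeded it on 3 arrays. The other 13 alpha chains stayed under the level on every array, with a highest value of 49.1 units, in Itga8. They include the platelet chain Itga2b, the leukocyte chains Itgal, Itgam and Itgax, the collagen-binding Itga1, Itga2, Itga10 and Itga11, and the fibronectin receptor chain Itga5, which read between 9.8 and 15.2 units.

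Among the beta chains Itgb1, the common partner of most alpha chains, read 1286.9 and 1321.1 units in homozygous, 1235.9 and 1454.9 in heterozygous and 818.8 and 1184.5 in wild-type arrays. Itgb5, which pairs with the product of Itgav to bind vitronectin, read 139.2 and 120.1 in homozygous, 86.7 and 68.0 in heterozygous and 186.5 and 155.0 in wild-type arrays. The 3 genotypes of Itgb5 did not overlap. Itgb3, which pairs with the same alpha chain, read 76.1 and 88.3 in homozygous, 91.1 and 75.9 in heterozygous and 45.5 and 81.7 in wild-type arrays. Only wild-type array 1 of Itgb3 lay under the level. The leukocyte chains Itgb2 and Itgb7, the epithelial chains Itgb4 and Itgb6, and Itgb2l stayed under it on every array, at most at 35.8 units.

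Of the type I cadherins, the N-cadherin gene Cdh2 read 3164.3 and 2524.5 units in homozygous, 2601.9 and 2786.6 in heterozygous and 1866.3 and 2211.9 in wild-type arrays. The P-cadherin gene Cdh3 read 598.2 and 641.0 in homozygous, 438.9 and 406.7 in heterozygous and 436.5 and 556.4 in wild-type arrays. The R-cadherin gene Cdh4 read 380.0 and 362.3 in homozygous, 309.4 and 385.2 in heterozygous and 635.8 and 470.3 in wild-type arrays. Wild-type arrays were thus lowest for Cdh2 and highest for Cdh4, and heterozygous arrays overlapped the homozygous arrays for both. Cdh1, the E-cadherin of epithelia, read between 5.8 and 9.8 units over the 6 arrays, and the M-cadherin gene Cdh15 between 2.5 and 7.2.

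Of the type II cadherins, Cdh20, a cadherin of the nervous system, read 252.4 and 244.5 units in homozygous, 166.1 and 188.9 in heterozygous and 177.3 and 152.4 in wild-type arrays. Cdh22, a brain cadherin, read 224.3 and 215.9 in homozygous, 166.8 and 223.3 in heterozygous and 150.8 and 168.0 in wild-type arrays. Cdh10, also of the brain, read 107.2 and 87.8 in homozygous, 91.8 and 95.8 in heterozygous and 79.7 and 83.0 in wild-type arrays. For Cdh20 the homozygous arrays stood above the other 4 arrays, while for Cdh22 and Cdh10 they overlapped the heterozygous arrays. Cdh6, the K-cadherin that marks compartments of the embryonic brain and kidney, read 50.6 and 56.7 in homozygous, 18.7 and 13.3 in heterozygous and 30.9 and 27.3 in wild-type arrays. Its 3 genotypes did not overlap. Only homozygous array 2 exceeded its olfactory receptor level, at 56.7 against 56.5 units, and homozygous array 1 lay just under its own, 51.3 units. Of the other type II cadherins, Cdh19 reached 42.8 units and Cdh11, a cadherin of mesenchyme and bone, 29.8, and Cdh8 reached 15.1. Cdh9, Cdh12, Cdh18, Cdh24, Cdh7 and the endothelial Cdh5 read 6.2 units at most or were blank on some arrays.

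Outside these classes, Cdh13 encodes T-cadherin, which is held by a lipid anchor and lacks the part that binds catenins. It read 782.7 and 701.4 units in homozygous, 663.2 and 793.9 in heterozygous and 442.3 and 722.0 in wild-type arrays. Wild-type array 1 stood apart below the other 5 arrays. Cdh23, a tip-link protein of hair cells, the kidney cadherin Cdh16, the gut cadherin Cdh17 and Cdh26 read 13.2 units at most. Itgb4bp read 846.9 and 837.9 in homozygous, 899.6 and 831.0 in heterozygous and 617.6 and 778.7 in wild-type arrays. In 7 probes (Itgam, Itga10, Itgbl1, Cdh5, Cdh7, Cdh17 and 1 of the 2 for Cdh24) at least 1 array was blank, with a highest value of 4.3 units among them, and these were not tested. The remaining 43 member probes were.

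**Figure D1:**
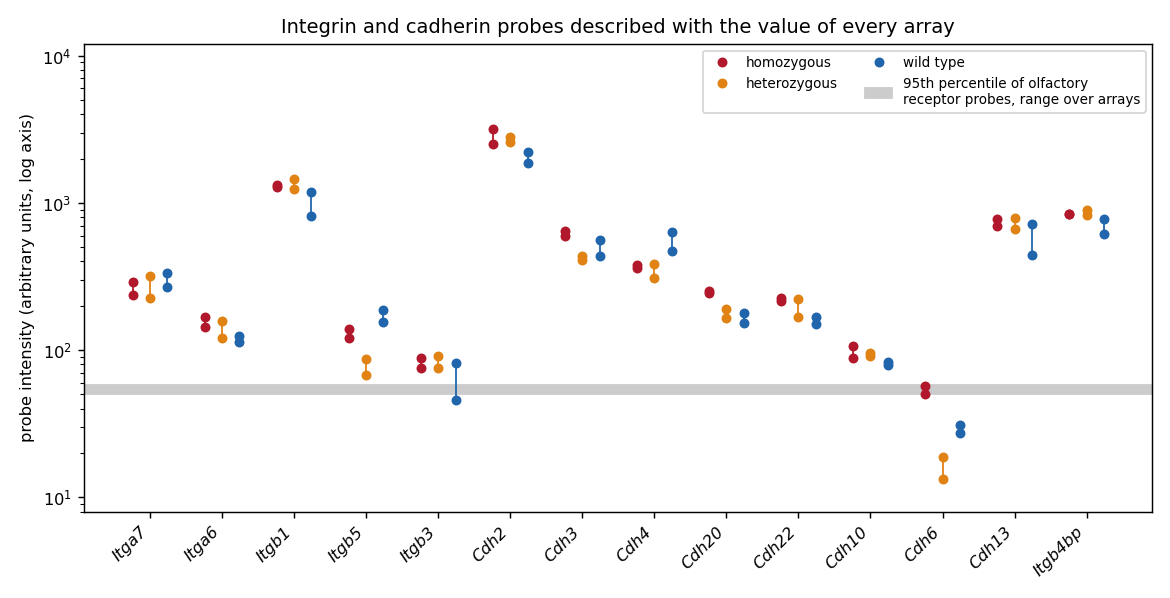
Probe intensity in arbitrary units (log axis) of the 14 member genes given with every array, where each point is 1 array and a line joins the arrays of a genotype. Of these, 12 lie above the grey band of the olfactory receptor level on all 6 arrays, Itgb3 dips under it in wild-type array 1, and Cdh6 reaches it in the homozygous arrays alone.

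Arrays of a genotype differed more among dim members than among bright ones. Of the 43 tested members, the arrays of a genotype lay over 1.5-fold apart for 5 in homozygous, 5 in heterozygous and 12 in wild type. Among the 12 probes above the level on all arrays these counts were 0, 0 and 1. The exception was Cdh13 in wild type, at 1.63-fold. Over all 20434 tested probes the shares were 6.83% in homozygous, 10.2% in heterozygous and 16.7% in wild type.

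**Figure D2:**
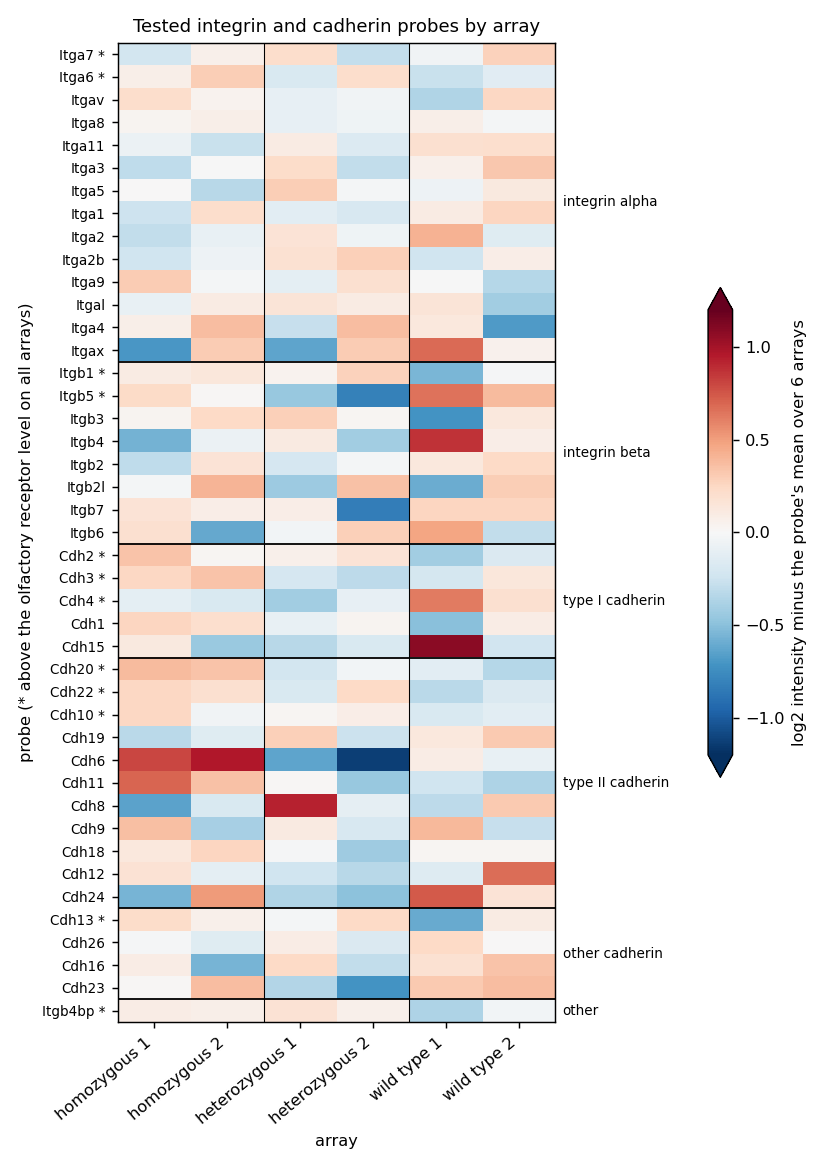
Log2 intensity of the 43 tested probes (rows, by class) on the 6 arrays (columns), minus each probe's mean over the arrays. Cdh6 is high on both homozygous and low on both heterozygous arrays, Itgb5 is low on both heterozygous arrays, and Itgb1, Itgb3 and Cdh13 are lowest on wild-type array 1.

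Arrays labelled homozygous were compared with those labelled wild type to see how adhesion genes differ where the Ecrg4 probe gave almost no signal. None of the 43 member probes passed the threshold of an adjusted p of 0.05 in limma, against 0.920% of all 20434 tested probes. At an unadjusted p under 0.05 there were 6, all cadherins, against 19.0% of all probes. Cdh6 gave a log2 fold change of 0.88 ± 0.21 (SE, n = 2 arrays each, limma adjusted p = 0.114). Both wild-type arrays and 1 homozygous array of Cdh6 lay under the olfactory receptor level. With the wild-type values raised to that level the fold was 0.969, so its size rests on values near background. Cdh20 gave 0.60 ± 0.16 (95% interval of the fold 1.16 to 1.98, adjusted p = 0.140) and Cdh2 0.48 ± 0.18 (interval 1.03 to 1.89, adjusted p = 0.235). Cdh22 gave 0.47 ± 0.19 (adjusted p = 0.251), and Cdh4 had the opposite sign, -0.56 ± 0.21 (fold 0.679, 95% interval 0.480 to 0.958, adjusted p = 0.224). The sixth was Cdh11 (0.83 ± 0.22, adjusted p = 0.135), which stayed under the level on all arrays, and which was picked after its values were seen.

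No integrin chain reached an unadjusted p under 0.05 between homozygous and wild type. Itgb1 gave 0.40 ± 0.21 (95% interval of the log2 fold change -0.11 to 0.92, limma adjusted p = 0.357), or 0.14 without wild-type array 1, and Itgb3 0.43 ± 0.29 (interval -0.28 to 1.13), which was 0.0048 without wild-type array 1. Itga6 gave 0.38 ± 0.19 (interval -0.08 to 0.85), Itgb5 -0.40 ± 0.19 (interval -0.87 to 0.08) and Itga7 -0.19 ± 0.23 (interval -0.75 to 0.37). These intervals leave room for changes close to 2-fold in Itgb1 and Itgb5, and over 2-fold in Itgb3 (upper end of the fold 2.19). Over all members the median log2 fold change was -0.08, with 20 of 43 above 0, beside a median of 0.02 over all tested probes. The 13 members above the level on both arrays of at least 1 genotype had a median of 0.38, with 10 above 0. Itgb3 is among them through its homozygous and heterozygous arrays alone. Over all tested probes above the level in that way the median was 0.00056. The other 30 members had a median of -0.20, with 10 above 0. The 22 tested integrin chains had a median of -0.16 with 9 above 0, and the 20 cadherin probes a median of 0.04 with 10 above 0, or -0.01 with each array centred on its median. In 21 of 43 members the arrays of the genotypes did not overlap, or 48.8%, against 50.5% of all tested probes. The largest difference of any member was under 2-fold.

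The heterozygous label was next set against the wild-type label, although Ecrg4 itself read higher in the heterozygous arrays. Again 0 of 43 members passed (limma), against 0.749% of all tested probes, and 4 had an unadjusted p under 0.05, against 13.5%. Nearest to the threshold was Itgb5, the beta chain of a vitronectin receptor, with a log2 fold change of -1.15 ± 0.19 (fold 0.452, 95% interval 0.326 to 0.626, adjusted p = 0.0834). All 4 arrays of Itgb5 lay above the olfactory receptor level, and it was the sole member over 2-fold apart. It passed with a pseudocount of 16 (adjusted p = 0.0210), when only probes above the level were tested (0.0169) and with a robust prior that follows intensity (0.00746). Over all alternatives its adjusted p lay between 0.00746 and 0.363. Cdh4 gave -0.66 ± 0.21 (interval of the fold 0.447 to 0.892, adjusted p = 0.282), and Cdh6 -0.88 ± 0.21 (adjusted p = 0.179) with both genotypes under the level. The fourth, Cdh23, gave -0.87 ± 0.20 (adjusted p = 0.170) at no more than 5.1 units, and was picked after its values were seen.

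Other bright members lay nearer to 0 in this comparison. Itgb1 gave 0.45 ± 0.21 (95% interval of the log2 fold change -0.07 to 0.96), Itgb3 0.45 ± 0.29 (interval -0.26 to 1.15), Cdh2 0.41 ± 0.18 (interval -0.03 to 0.85) and Cdh13 0.36 ± 0.26 (interval -0.26 to 0.98). Without wild-type array 1 the log2 fold change of Cdh13 was 0.01, that of Itgb3 0.03 and that of Itgb1 0.18, so these values rest in large part on that array. Cdh20, at 0.11 ± 0.16 (interval -0.28 to 0.50), and Itga7, at -0.15 ± 0.23, changed sign when single arrays were left out. The members' median was -0.10 with 19 of 43 above 0, beside -0.01 over all tested probes. The 13 members above the level on both arrays of a genotype had a median of 0.22 with 9 above 0, beside 0.04 over all such probes. The other 30 members had a median of -0.19 with 10 above 0. The integrin chains had a median of -0.05 (10 of 22 above 0) and the cadherins of -0.19 (8 of 20). The arrays of the genotypes did not overlap in 17 members, or 39.5%, against 45.5% of all tested probes. The comparisons with wild type share the wild-type arrays, so a like value in both is no second observation. The same holds for the heterozygous and for the homozygous arrays in the comparisons that share them.

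**Figure D3:**
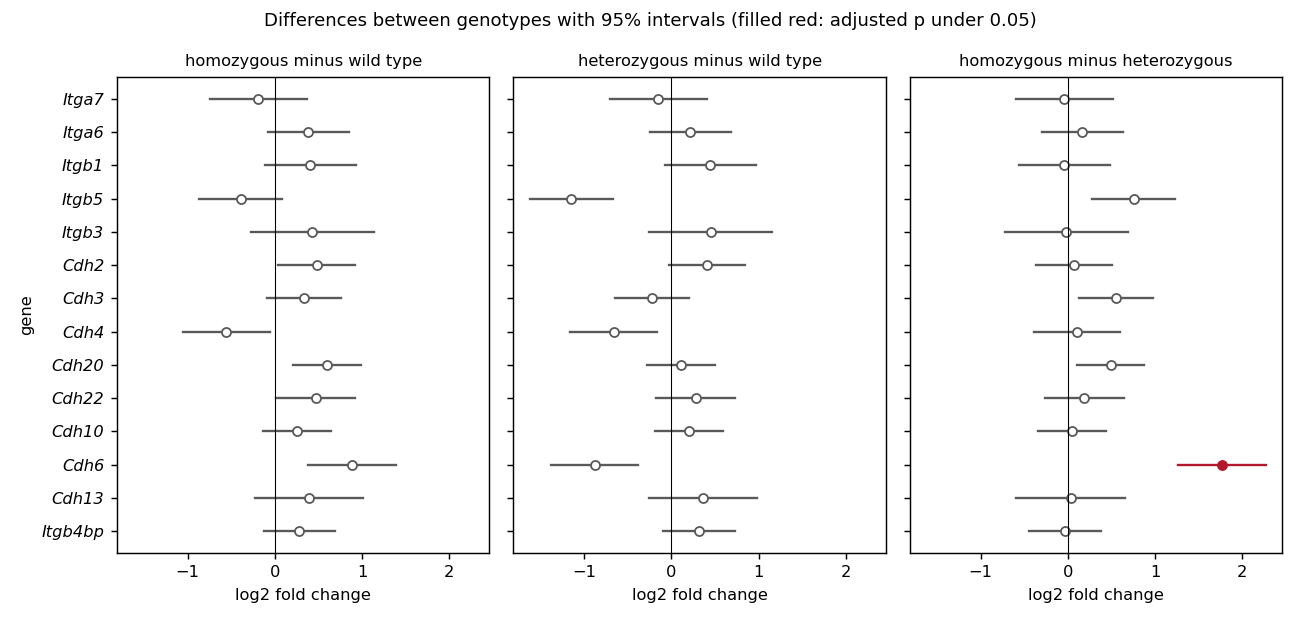
Log2 fold change (point) and 95% interval (line) of the 14 member genes in the 3 comparisons, filled red where the adjusted p was under 0.05. The single call is Cdh6 between homozygous and heterozygous; the interval of Itgb5 excludes 0 in the heterozygous comparisons with wild type and with homozygous without passing over all probes.

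Arrays labelled homozygous were then compared with those labelled heterozygous, where the largest number of probes of the whole array had passed. Here 1 of 43 members, or 2.33%, passed (limma), against 2.69% of all tested probes, so the count of members was near that of the array as a whole. The gene was Cdh6, which was higher in homozygous arrays by 1.76 ± 0.21 on the log2 scale (SE, n = 2 arrays each, fold 3.40, 95% interval 2.40 to 4.81, adjusted p = 0.0144). Both heterozygous arrays and homozygous array 1 lay under the olfactory receptor level. With the heterozygous values raised to that level the fold was 1.02, so the size of 3.40 rests on values near background. The call ended without homozygous array 1 (adjusted p = 0.114), without homozygous array 2 (0.142) and without heterozygous array 2 (0.0811), and the log2 fold change was then 1.85, 1.68 and 1.52. Cdh6 passed in 12 of 15 alternatives, and with only probes above the level it was not tested. In this comparison the fits without a wild-type array repeat the fit of only the arrays compared. The 12 therefore count that fit more than once.

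Markers of other cell types were read beside this value. The summed intensity of 8 mural, meningeal and fibroblast markers was between 196.2 and 230.1 units in homozygous, 414.9 and 417.3 in heterozygous and 1059.8 and 1365.4 in wild-type arrays, largely through Acta2, and 7 of the 8 stayed under the level on all arrays. Of these 8, Acta2 and Foxc1 passed the test as lower in homozygous than in heterozygous arrays. The 8 had a median log2 fold change of -0.20, with 3 above 0. Of 6 astrocyte markers Aqp4 passed as lower, and 1 of the 6 was above 0. The sums of the astrocyte markers were between 7530.8 and 8459.4 in homozygous and 8929.7 and 8967.9 in heterozygous arrays. The part of these differences in the value of Cdh6 was not tested. No neuron, endothelial or microglia and leukocyte marker passed between these labels, and none exceeded the level on all arrays. The sums of 7 neuron markers were between 168.5 and 212.4 units in homozygous and 146.6 and 156.9 in heterozygous arrays, and those of 8 endothelial markers between 102.0 and 148.2 in homozygous and 86.2 and 99.3 in heterozygous arrays. The sums of 10 microglia and leukocyte markers overlapped, with between 210.9 and 229.8 units in homozygous and 171.8 and 211.5 in heterozygous arrays. In each comparison with wild type 1 mural, meningeal and fibroblast marker passed as lower. Between heterozygous and wild type 1 microglia and leukocyte marker did too. Endothelial sums were between 164.3 and 219.6 in wild-type arrays. Neural stem cell sums were between 68356.4 and 68720.4 in homozygous, 61623.4 and 64644.3 in heterozygous and 63949.3 and 66182.9 in wild-type arrays. The part of these in member values was not tested.

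Beyond Cdh6, 5 members had an unadjusted p under 0.05 between homozygous and heterozygous, all with positive sign, and the 6 together stood against 18.2% of all tested probes. Itgb5 gave 0.75 ± 0.19 (95% interval of the fold 1.21 to 2.34, adjusted p = 0.117), Cdh3 0.55 ± 0.17 (interval 1.09 to 1.96, adjusted p = 0.172) and Cdh20 0.49 ± 0.16 (interval 1.07 to 1.83, adjusted p = 0.185). Cdh11 (0.75 ± 0.22) and Cdh23 (0.73 ± 0.20) were dim. Itgb5 passed under the same 3 alternatives as before, with limma adjusted p of 0.0403, 0.0349 and 0.0296. Both results for Itgb5 rest on the same heterozygous arrays. The cadherins had a median of 0.15, with 16 of 20 above 0, or 14 of 20 after quantile, median or cyclic loess scaling, and the type II cadherins of 0.32 with 9 of 11 above 0. With quantile, median and cyclic loess scaling the type II median was 0.23, 0.27 and 0.21, each with 8 of 11 above 0. Only 3 type II probes were above the level on both arrays of a genotype, Cdh20 at 0.49, Cdh22 at 0.19 and Cdh10 at 0.05. The type II median thus rests mostly on probes that cannot be separated from background. The integrin chains had a median of -0.03 with 10 of 22 above 0. Over all tested probes the median was 0.04, with 11141 of 20434 above 0. The 13 members above the level on both arrays of a genotype had a median of 0.07 with 9 above 0, beside -0.04 over all such probes. The other 30 members had a median of 0.07 with 17 above 0. The genotypes did not overlap in 14 members, 11 of them higher in homozygous arrays, or 32.6% in either direction, against 54.6% of all tested probes.

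The members above the level that remain gave values near 0 between these labels. Cdh2 gave 0.07 ± 0.18 (95% interval of the log2 fold change -0.37 to 0.51), Itgb1 -0.04 ± 0.21 (interval -0.56 to 0.48), Cdh13 0.03 ± 0.26 (interval -0.59 to 0.65), Itga7 -0.04 ± 0.23 (interval -0.60 to 0.52) and Itgb3 -0.02 ± 0.29 (interval -0.73 to 0.69). Itga6, at 0.16 ± 0.19, Cdh4 at 0.10 ± 0.21, Cdh22 at 0.19 ± 0.19 and Cdh10 at 0.05 ± 0.16 were near 0 as well, and all of these changed sign under at least 1 alternative. Over 2-fold changes lay outside the intervals of the 5 genes given first.

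**Figure D4:**
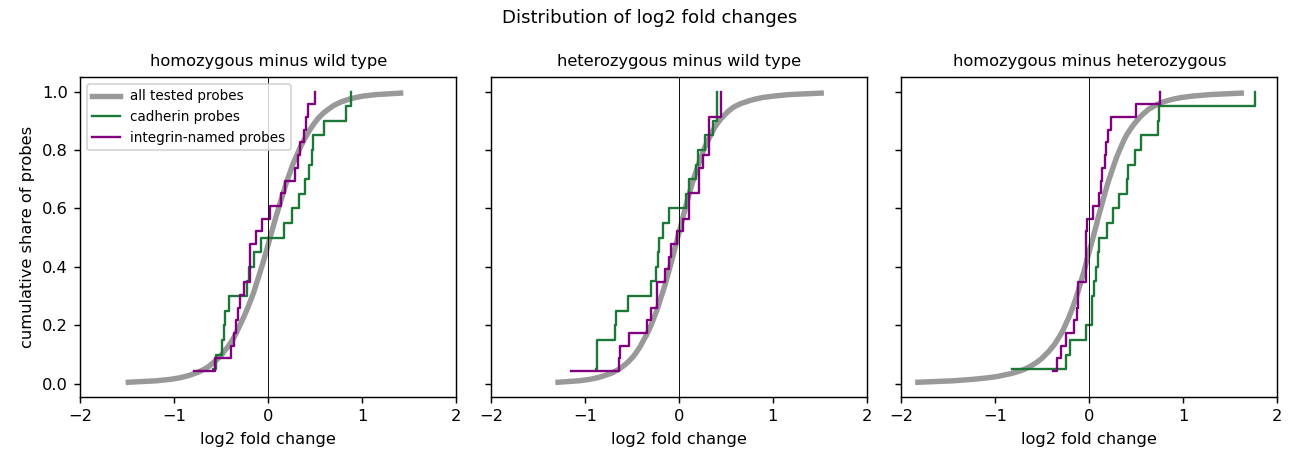
Cumulative share of probes against log2 fold change in the 3 comparisons, for all tested probes (grey), 20 cadherin probes (green) and 23 integrin-named probes (purple, Itgb4bp included). The highest cadherin value between homozygous and heterozygous is that of Cdh6 at 1.76.

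Promoter sequence is shown for Cdh6, the gene that passed, for Itgb5, the member above the level that came nearest to the threshold, and for Cdh20, the type II cadherin above the level whose homozygous arrays stood apart from all others. Each window runs from 250 bases before to 50 after the start site in the RefSeq annotation of GRCm38.p6, on the strand of the gene. Capitals mark the GC box GGGCGG, the E-box CACCTG that Snail and Zeb factors bind, and their reverse complements, and TATAAA was searched as well on both strands.
Cdh6 (chr15:13173626-13173925, minus strand): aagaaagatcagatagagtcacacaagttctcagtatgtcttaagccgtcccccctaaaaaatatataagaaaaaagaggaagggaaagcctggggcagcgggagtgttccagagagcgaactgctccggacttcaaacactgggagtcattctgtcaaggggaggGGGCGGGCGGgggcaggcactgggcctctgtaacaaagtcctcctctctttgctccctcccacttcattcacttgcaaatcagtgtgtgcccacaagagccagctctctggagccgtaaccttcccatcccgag
Cdh20 (chr1:104768270-104768569, plus strand): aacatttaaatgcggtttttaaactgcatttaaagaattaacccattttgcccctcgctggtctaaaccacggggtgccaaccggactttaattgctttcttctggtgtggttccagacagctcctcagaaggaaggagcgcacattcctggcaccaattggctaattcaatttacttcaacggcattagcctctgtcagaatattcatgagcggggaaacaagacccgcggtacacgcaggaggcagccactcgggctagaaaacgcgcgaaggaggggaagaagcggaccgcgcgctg
Itgb5 (chr16:33829415-33829714, plus strand): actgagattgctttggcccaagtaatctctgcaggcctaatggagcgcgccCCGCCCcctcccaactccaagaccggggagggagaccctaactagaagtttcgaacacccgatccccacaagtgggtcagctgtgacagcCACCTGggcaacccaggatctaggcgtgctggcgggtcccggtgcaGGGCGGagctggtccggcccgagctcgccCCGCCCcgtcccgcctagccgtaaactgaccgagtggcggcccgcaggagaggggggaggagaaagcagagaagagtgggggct
The Cdh6 window held 2 overlapping GC boxes, the first starting 84 bases before the start site. The Itgb5 window held 3 GC boxes and 1 E-box, and the Cdh20 window held none of the motifs. The share of G and C was 53.0% for Cdh6, 50.7% for Cdh20 and 65.7% for Itgb5, beside a median of 52.7% over all 32851 promoter windows. Of all windows 35.7% held a GC box, 20.2% the E-box and 13.6% TATAAA. Of the 36 windows found for 32 member genes, 15, 8 and 0 did. A match is a description of the letters in the window.

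Genes that work with integrins and cadherins were read from the same fit. Of 29 tested cytoplasmic partners of integrins, such as talins, vinculin and focal adhesion kinase, none passed in any of the 3 comparisons (limma), and 18 exceeded the olfactory receptor level on all arrays. Their median log2 fold change was -0.07 between homozygous and wild type, 0.01 between heterozygous and wild type and -0.07 between homozygous and heterozygous. Of 16 cytoplasmic partners of cadherins, the alpha-catenin gene Ctnna2 passed in the comparisons that hold the heterozygous arrays, with 9.7 and 7.4 units in homozygous, 2.2 and 2.9 in heterozygous and 10.1 and 9.4 in wild-type arrays (adjusted p = 0.0199 for heterozygous against wild type and 0.0157 for homozygous against heterozygous). Arvcf, a catenin relative, passed between homozygous and heterozygous arrays (adjusted p = 0.0470), with 5.6 and 9.1 units in homozygous and 23.4 and 19.1 in heterozygous arrays. Both genes lay under the level on all arrays, so these intensities cannot be separated from background and no fold is given. Of the partners 9 exceeded the level on all arrays.

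Of 27 tested matrix and counter-receptor ligands of integrins, the laminin chain gene Lamb2 read 339.1 and 307.3 units in homozygous, 867.8 and 993.4 in heterozygous and 859.9 and 953.1 in wild-type arrays. It fell in homozygous arrays against heterozygous ones (-1.52 ± 0.16, limma adjusted p = 0.0114) as against wild-type ones (-1.49 ± 0.16, adjusted p = 0.0215). The thrombospondin gene Thbs2 passed between heterozygous and wild-type arrays (adjusted p = 0.0138) and between homozygous and heterozygous arrays (adjusted p = 0.0344), and the laminin chain gene Lama4 between homozygous and heterozygous (adjusted p = 0.0393). Thbs2 read at most 15.7 and Lama4 at most 10.8 units on any array, under the level, and no fold is given for them. The list's median was -0.20 between homozygous and wild type, -0.02 between heterozygous and wild type and -0.15 between homozygous and heterozygous. Of 22 tested probes for other members of the cadherin superfamily, among them protocadherins and Celsr genes, none passed, and 3 exceeded the level on all arrays. Their median was -0.06 between homozygous and wild type, -0.28 between heterozygous and wild type, with 5 of 22 above 0, and 0.15 between homozygous and heterozygous, with 19 of 22 above 0. Of all 20434 tested probes 9925 lay above 0 between heterozygous and wild type and 11141 between homozygous and heterozygous. Both of these counts for the superfamily rest on the same heterozygous arrays.

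Repressors of the E-cadherin gene were measured on 7 tested probes, none of which passed. Zeb1 read 2518.5 and 2245.7 units in homozygous, 2417 and 2545.6 in heterozygous and 2166.4 and 2238.7 in wild-type arrays, and Twist1 read 146.5 and 148.8 in homozygous, 205.5 and 209.2 in heterozygous and 141.8 and 163.3 in wild-type arrays. Zeb1 and Twist1 were among 4 of the list's 8 probes that exceeded the level on all arrays. For Twist1 the heterozygous arrays lay above the other 4 arrays. The summed intensity of the 8 probes was between 3066.9 and 3314.4 units in homozygous arrays. It was between 3790.7 and 3792.9 in heterozygous and 3294.2 and 3695.9 in wild-type arrays. The tested probes had a median of -0.06 between homozygous and heterozygous, with 3 of 7 above 0. Snai1 and the probe of Zeb2 stayed at 8.5 units or less.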

How the data were processed

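The deposited table holds linear intensity values, 1 colour, of 23466 probes on 6 arrays. The columns share a median of 30, so they were read as scaled by the authors. RNA was amplified to amino allyl aRNA and coupled to a dye, per the labels' protocols, while the label field gives biotin. The sources used here do not give background correction, scanner or the rule for blank cells. Values were log2-transformed with no pseudocount or further scaling. The 20434 probes measured on every array entered lmFit, contrasts.fit and eBayes of limma 3.58.1 (R 4.3.3), with 1 coefficient per genotype, 3 residual degrees of freedom and a prior of 3.27. Tests were two-sided, with Benjamini-Hochberg adjustment over all tested probes and a threshold of 0.05. The number of arrays limits the precision.

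The platform annotation gave the symbols, and 6841 probes were unnamed here. Other genes were matched by current symbols of a RefSeq table of GRCm38.p6, which also gave chromosomes and promoters. The members and gene lists were chosen with earlier results of these data known. Members given with every array are those called in any comparison, the 12 of highest mean, and in each comparison the 6 with the largest change among those above the level on both arrays of a genotype. Of the other lists the text names called genes, and the repressors shown by level were picked after their values were seen. Scripts were tested on simulated data.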

Additional observations from a re-analysis of the deposited data

How the results depend on the processing

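With a pseudocount of 16, or with an intensity trend and robust prior, 2 members passed between homozygous and wild type (Cdh20 and Cdh6), 1 between heterozygous and wild type (Itgb5) and 2 between homozygous and heterozygous (Itgb5 and Cdh6), against 0, 0 and 1 as reported. With only probes above the olfactory receptor level the counts were 1 (Cdh20), 1 (Itgb5) and 1 (Itgb5). Leaving out single arrays gave 0 members in both comparisons with wild type and between 0 and 1 between homozygous and heterozygous. The cause of these differences was not tested. Quantile, median and cyclic loess scaling, filled blank cells, array weights, a fit of only the arrays compared and the replicate block left the counts at 0, 0 and 1. Over 669 recomputed fold changes of the 14 genes given with every array, none that passed reversed, 11 newly passed, 3 no longer passed and 22 that never passed changed sign.

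Replicate numbers are shared by the labels, but nothing says that they mark a common source, and deviations of same-numbered arrays correlated at -0.0759, 0.00999 and 0.0156 across probes, so the arrays were not treated as paired. With the number as a replicate block, 0 members passed between homozygous and wild type, 0 between heterozygous and wild type and 1 between homozygous and heterozygous. Most members lie under the olfactory receptor level, where a difference cannot be separated from background.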
